A study of Mus musculus with 12 samples.

Results

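Mouse stem cells that carry loss-of-function alleles of both Lin28a and Lin28b were compared with wild-type cells, with 3 samples per group, 6 of the 12 samples in the series. Each sample was hybridised to 1 array of an Illumina Mouse WG-6 BeadChip, a glass slide that carries 6 arrays of bead-bound probes. The labels call the cells embryonic stem cells, the controls are named wild-type induced pluripotent stem cells in the series design, and both groups grew in serum with the cytokine Lif. The other groups, Lin28a loss and Lin28b loss, have 3 samples each. Each genotype is represented by 1 line, so a difference between lines and a difference between genotypes cannot be told apart. The wild-type arrays lie on chip 1 and the double-loss arrays on chip 2, so chip and genotype cannot be told apart either. The Lin28b-loss arrays also lie on chip 2, and the difference between double loss and Lin28b loss, which involves no change of chip, is therefore printed beside many of the genes named here. It shares the double-loss arrays with the main comparison. Nothing in the labels says that the replicates came from separate cultures, and in that case the p-values measure only the spread between these samples.

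Of 30854 genes in the deposited table, 9065 were described because their detection p was under 0.01, called above background, on all 3 arrays of wild type or all 3 of double loss. Levels are normalized log2 intensities, and a change is the double-loss mean minus the wild-type mean on that scale. A change that involves a group above background on fewer than all its arrays is a measured difference, not an exact one. A gene rose or fell where limma's Benjamini-Hochberg adjusted p was under 0.05. Raw signal averaged 325.4 to 596.7 on the 12 arrays, with 9377 to 10773 genes of each array above background.

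Lin28a and Lin28b are RNA-binding proteins that attach to precursors of the let-7 microRNAs and block their maturation. Mature let-7 guides the silencing complex to messenger RNAs through its seed, and its targets include growth genes and Lin28a itself. Embryonic stem cells hold Lin28a at a high level and let-7 at a low level, and Lin28a was one of the factors used to reprogram human somatic cells to pluripotency. The mature microRNAs whose maturation Lin28 proteins restrain are shown here because the target list below names their reported targets. That list is a fixed set of gene names, and no transcript was searched for matches to the seed. Written 5′ to 3′ from RefSeq (GRCm38.p6), with the seed, bases 2 to 8, in capitals, they read:
let-7a-5p: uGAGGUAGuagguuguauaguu
let-7b-5p: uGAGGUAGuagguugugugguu
let-7c-5p: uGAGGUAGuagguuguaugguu
let-7d-5p: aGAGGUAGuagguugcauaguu
let-7e-5p: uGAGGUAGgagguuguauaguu
let-7f-5p: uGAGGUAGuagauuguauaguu
let-7g-5p: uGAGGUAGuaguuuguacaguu
let-7i-5p: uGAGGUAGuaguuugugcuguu
miR-98-5p: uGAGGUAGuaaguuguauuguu
All 9 share 1 seed and each is 22 bases long. They come from 11 loci, among them Mirlet7g at chr9:106178846-106178867 on the plus strand and Mirlet7a-1 at chr13:48538239-48538260 on the minus strand. The arrays used here read messenger RNAs, and no level of a mature microRNA was measured.

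The targeted genes were read first. Lin28a gave 8.07, 7.97 and 7.86 on the wild-type arrays and 5.29, 5.55 and 5.60 on the double-loss arrays. The groups did not overlap, and Lin28a fell by 2.48 ± 0.11 (SE; limma adjusted p = 7.26e-09). In Lin28a loss its mean was 5.66 and in Lin28b loss it ranged from 6.84 to 7.19. Its transcript was still above background on all 3 double-loss arrays, and where its 4 probes lie relative to the altered part of the gene is not given in the sources used here. Lin28b has 2 entries in the table. Both were above background on none of the 6 arrays, with means of 4.41 and 4.68 in wild type and 4.39 and 4.90 in double loss, so the table offers no check of the Lin28b allele.

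Across all described genes 3453 passed the test, 38.1% of them, with 1697 that rose (18.7%) and 1756 that fell (19.4%). Most changes were small: 528 of them reached 2-fold and 75 reached 4-fold, of which 42 rose and 33 fell. The median change over described genes was -0.01. The split of calls depends on the scaling. Over all 9920 genes tested, 1781 rose and 1895 fell after quantile normalization, while scaling each array to its median gave 444 and 1282, with a shift of -0.13 in the median change. In the deposited probe-level values, tested over all 45281 probes without a limit on detection, 5635 probes rose and 2559 fell. That fit differs in its set of features as well as in scaling. The median deposited value was 10.8 to 12.2 on wild-type arrays and 13.9 to 14.2 on double-loss arrays. Calls were more frequent among dim genes, from 46.1% in the dimmest of 4 equal groups by mean level to 27.1% in the brightest. Between double loss and Lin28b loss, on the same chip, 3342 described genes passed, or 36.9%.

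The cells of both groups carried the transcripts of pluripotent stem cells. Of 14 described members of the marker list 4 rose and 1, Lin28a, fell, 35.7% in all against 38.1% of described genes. Of the 15 genes listed, 14 were above background on all 6 arrays, and Dppa2 was the one that was not, on any array. Pou5f1, which encodes the pluripotency factor Oct4, stood at 12.68 in wild type and 12.60 in double loss (change -0.09 ± 0.10, adjusted p = 0.523). Sox2, its partner on DNA, stood at 8.53 and 8.43 (-0.10 ± 0.14, adjusted p = 0.623). Nanog stood at 11.93 and 12.20 (0.28 ± 0.27, adjusted p = 0.464). The summed linear level of the list ranged from 66247 to 69685 over the wild-type arrays and from 70989 to 80169 over the double-loss arrays.

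**Figure D1:**
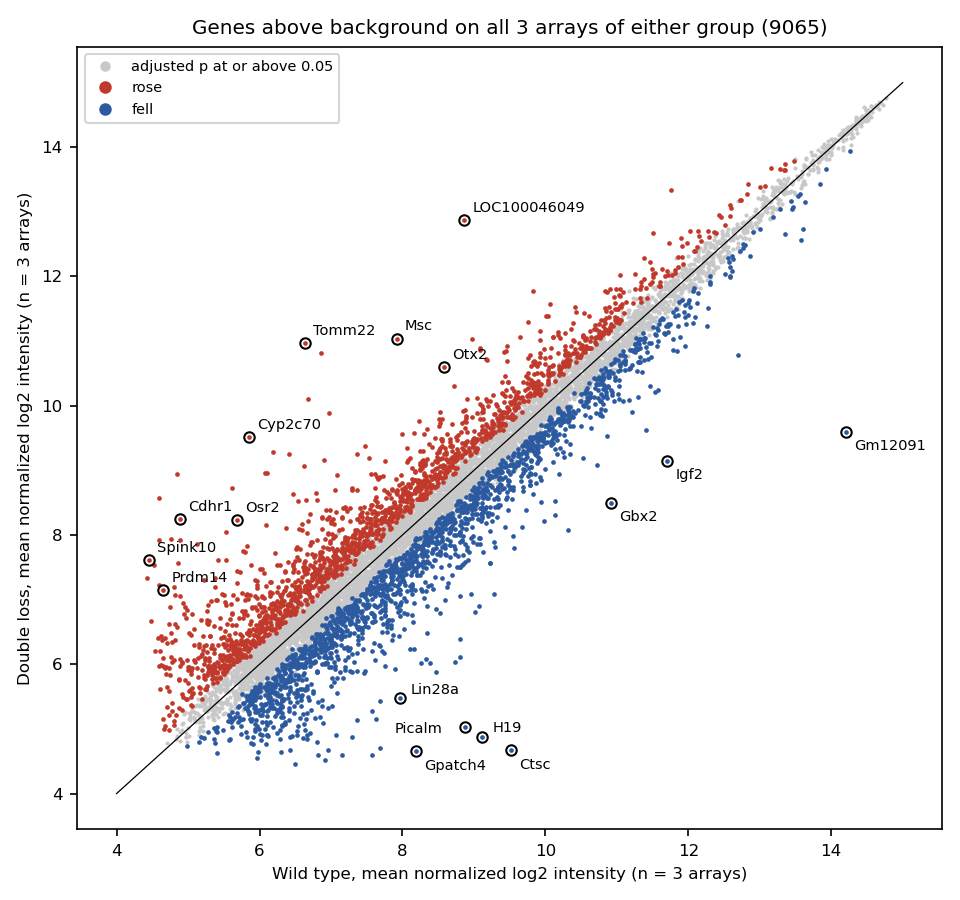
Mean normalized log2 intensity of each described gene in wild type (horizontal) and double loss (vertical), n = 3 arrays each, with genes that rose in red, genes that fell in blue and the others in grey. Circles mark some genes named in the text; of these Tomm22 and LOC100046049 lie farthest above the line of equal level and Ctsc and Gm12091 farthest below it.

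Among genes above background on all 6 arrays, Tomm22 had the largest rise. It encodes a receptor subunit of the translocase that brings proteins through the mitochondrial outer membrane. Wild-type arrays read 6.46, 6.68 and 6.74 and double-loss arrays 10.98, 10.93 and 11, a rise of 4.34 ± 0.09, or 20.2-fold (adjusted p = 2.08e-11). Double loss also exceeded Lin28b loss by 4.54, and Lin28a loss had a mean of 9.53, so the transcript was high on the arrays of both Lin28a-mutant groups and low on those of the other groups. Of other subunits of the same complex, Tomm40 changed by 0.09 and Tomm7 by -0.08, neither of which passed.

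Cyp2c70, a liver cytochrome P450 that makes muricholic bile acids in mice, was dim in wild type at 5.55, 5.98 and 6.02. It stood at 9.52, 9.53 and 9.47 in double loss. The gap between the groups was 3.46, and the rise was 3.66 ± 0.13. In Lin28b loss it was above background on 1 of 3 arrays. Osr2, a zinc finger factor of limb and palate development, went from 5.62, 5.81 and 5.60 to 8.30, 8.17 and 8.21. It rose by 2.55 ± 0.12 over wild type, and it was above background on no Lin28b-loss array (4.91 to 5.08). Spink10, which is named for a serine peptidase inhibitor domain, was above background on no array of the other 3 groups and read 7.68, 7.47 and 7.69 in double loss. Its level was at least 3.87-fold higher than in wild type. These 3 genes were high on the double-loss arrays alone among the 12.

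Msc, which encodes the basic helix-loop-helix factor musculin, had an intermediate level in Lin28b loss. It read 7.55, 8.12 and 8.08 in wild type, 9.35, 9.61 and 9.70 in Lin28b loss and 10.89, 11.04 and 11.17 in double loss, a rise of 3.12 ± 0.22 over wild type and 1.48 over Lin28b loss. Pga5, a pepsinogen, rose by 3.09 ± 0.11 from 6.08, 6.20 and 6.29 to 9.08, 9.39 and 9.38. Mfap1b, a copy of a gene for a microfibril-associated protein, rose by 2.91 ± 0.10. Both also stood above Lin28b loss, by 1.02 and 1.06. The probe of Mfap1b may also read its near-identical copy, so its identity is uncertain.

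For several of the largest rises Lin28b loss was also higher than wild type. Jam2, a junctional adhesion molecule used as a marker of naive cells, read 6.19, 6.01 and 6.03 in wild type and 9.19, 8.81 and 8.89 in double loss. It rose by 2.89 ± 0.18 over wild type, with a difference from Lin28b loss of -0.15 (adjusted p = 0.575). H2-Eb1, a class II histocompatibility chain, rose by 2.85 ± 0.16 and differed from Lin28b loss by 0.41 (adjusted p = 0.058). AA467197, the mouse gene for a small protein known as normal mucosa of esophagus-specific gene 1, rose by 3.96 ± 0.15 over wild type and lay 0.75 below Lin28b loss (-0.75, adjusted p = 0.00212). Spic, an Ets-family factor of red pulp macrophages, rose by 2.45 ± 0.14 and stood 0.44 above Lin28b loss (adjusted p = 0.028). For these genes the wild-type arrays lay below both groups on chip 2. The Lin28a-loss means, on the chip of wild type, were 7.89 for Jam2, 8.03 for H2-Eb1, 10.54 for AA467197 and 6.47 for Spic, against 6.08, 6.11, 6.86 and 6.62 in wild type. The remaining members of the 12 largest rises were LOC100046049 (4.01 ± 0.10) and an unnamed entry (3.43 ± 0.13).

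The largest fall among genes above background on all 6 arrays was that of Gm12091, a predicted gene. It read 14.06, 14.37 and 14.2 in wild type, close to the top of the scale, and 9.45, 9.57 and 9.79 in double loss, a fall of 4.61 ± 0.12 (change -4.61, adjusted p = 3.61e-11). Its level was 14.15 in Lin28a loss and 9.60 to 9.89 in Lin28b loss, so the 2 chips separated its values, and the difference within chip 2 was -0.17 (adjusted p = 0.292). Gbx2, a homeobox factor that sustains stem cell self-renewal downstream of Lif, Hebp1, a heme-binding protein, and Cdx1, a caudal-type homeobox factor induced by Wnt, fell by 2.42, 2.24 and 2.20. Their differences from Lin28b loss were 0.17, -0.04 and 0.04, and none of those passed.

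Other large falls also separated double loss from Lin28b loss. Tekt1, a tektin of cilia and sperm tails, read 8.29, 8.63 and 8.49 in wild type and 5.73, 5.90 and 6.01 in double loss, a change of -2.59 ± 0.11, and -1.63 against Lin28b loss. Pclaf, a partner of the replication clamp PCNA, changed by -2.69 ± 0.12 against wild type and by -0.57 against Lin28b loss. In both genes every double-loss array lay below every array of both groups. The centrosomal gene Sfi1 changed by -2.36 ± 0.09 and 6530401D06Rik by -2.24 ± 0.12, and against Lin28b loss by -0.30 and -1.76. Sfi1 was thus also low in Lin28b loss, with a mean of 6.32, and it was above background on no Lin28a-loss array. The falls of Igf2 and Meg3 are given with the imprinted genes.

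**Figure D2:**
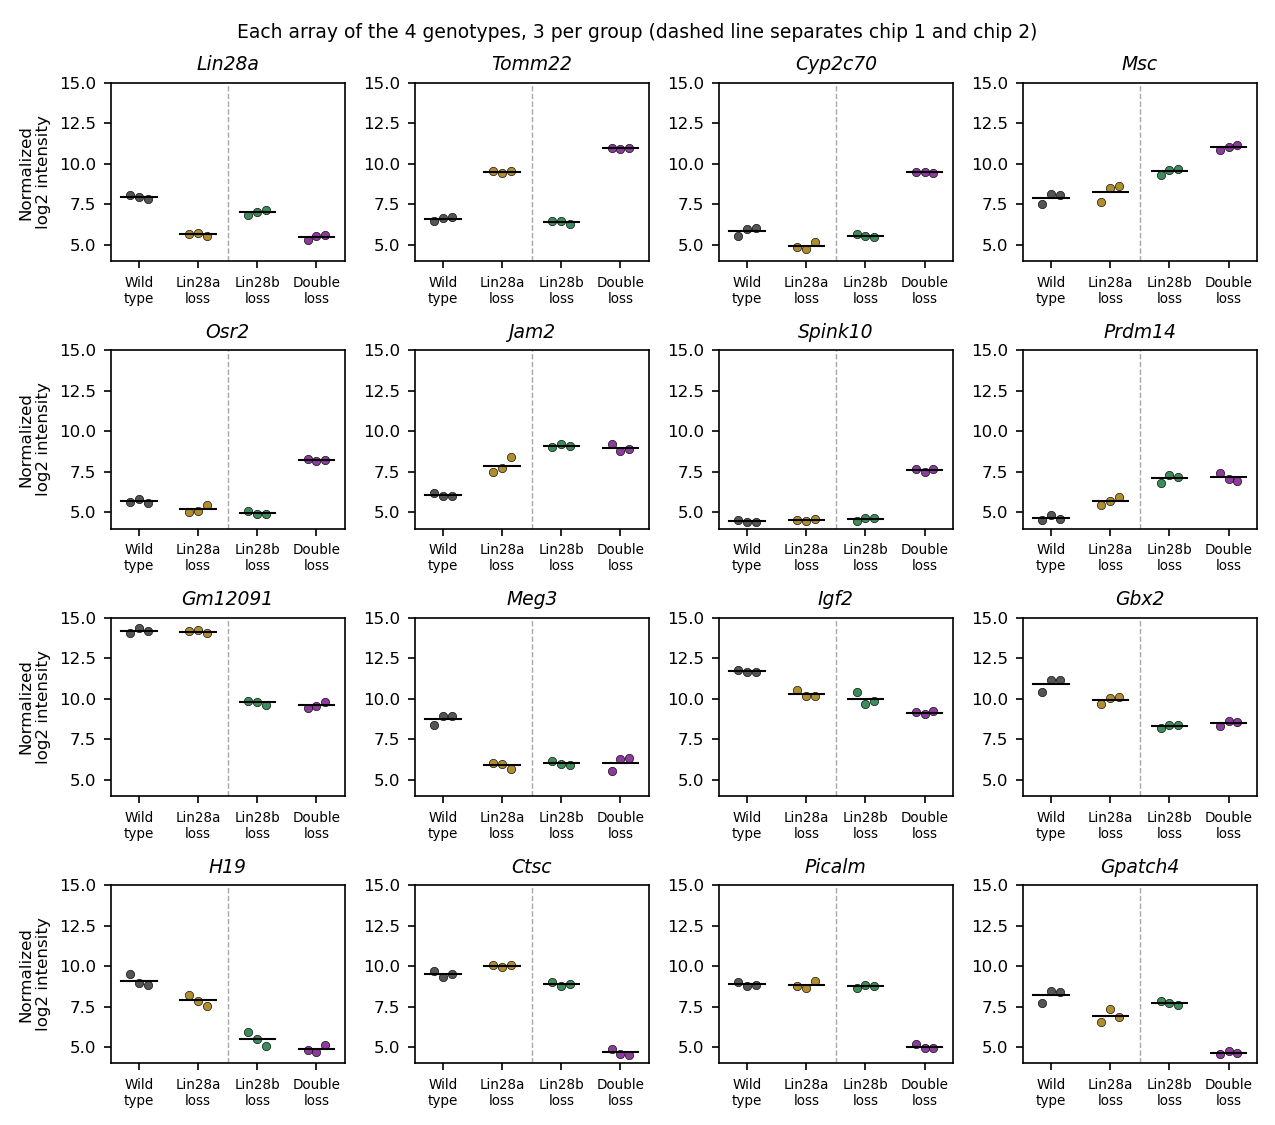
Normalized log2 intensity of 16 genes on each of the 12 arrays, 3 points per genotype with the mean as a bar; the dashed line separates chip 1 (left) from chip 2 (right). Cyp2c70, Osr2 and Spink10 are high in double loss only, Ctsc and Picalm are low in double loss only, and Gm12091 differs between the chips.

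Some genes crossed the background limit altogether. In the described set 121 genes were above background on all 3 wild-type arrays and on no double-loss array, and 165 were above it on all 3 double-loss arrays and on no wild-type array. For these a lower bound of the fold was computed against the dimmest level that the arrays could measure. Cdhr1, a photoreceptor cadherin, was at least 5.98-fold higher in double loss, where it read 8.18, 8.37 and 8.18 against 4.86, 5.01 and 4.79 in wild type. Tiam2, an exchange factor for Rac, was at least 4.83-fold higher, and Pramel14, of the Prame-like family expressed in germ cells and early embryos, at least 4.81-fold. Clca3b, a chloride channel accessory gene, was at least 3.87-fold higher. The entries LOC380706, LOC329506 and LOC100047899, which have no gene name, were at least 9.68, 7.55 and 4.84-fold higher. Against Lin28b loss, Cdhr1 differed by 0.44, Tiam2 by 1.15, Pramel14 by -0.19 and Clca3b by 1.84.

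In the other direction Picalm, a clathrin assembly protein, was at least 9.51-fold lower. It read 9.02, 8.79 and 8.84 in wild type and 5.20, 4.93 and 4.97 in double loss, while Lin28b-loss arrays read 8.67, 8.84 and 8.79. Gpatch4, a nucleolar G-patch protein, was at least 5.87-fold lower (7.70, 8.46 and 8.40 against 4.58, 4.76 and 4.63), with 7.59 to 7.87 in Lin28b loss. Calr4, a calreticulin paralog, was at least 3.86-fold lower and Pak1, a kinase activated by Rac and Cdc42, at least 3.34-fold. In Lin28b loss they read 7.24 to 7.31 and 7.54 to 7.80. Picalm, Gpatch4 and Pak1 were above background on all 9 arrays of the other groups, while Calr4 was also below it in Lin28a loss. Gm8225, 1110006E14Rik and 9430091F09Rik were at least 4.14, 4.12 and 3.15-fold lower, and none of them was above background on any Lin28b-loss array. In Lin28a loss, on the chip of wild type, Gm8225 was above background on all 3 arrays, with a mean of 7.34. There 1110006E14Rik was above it on no array and 9430091F09Rik on 1. Cavin1, a coat protein of caveolae, was at least 2.93-fold lower.

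**Figure D3:**
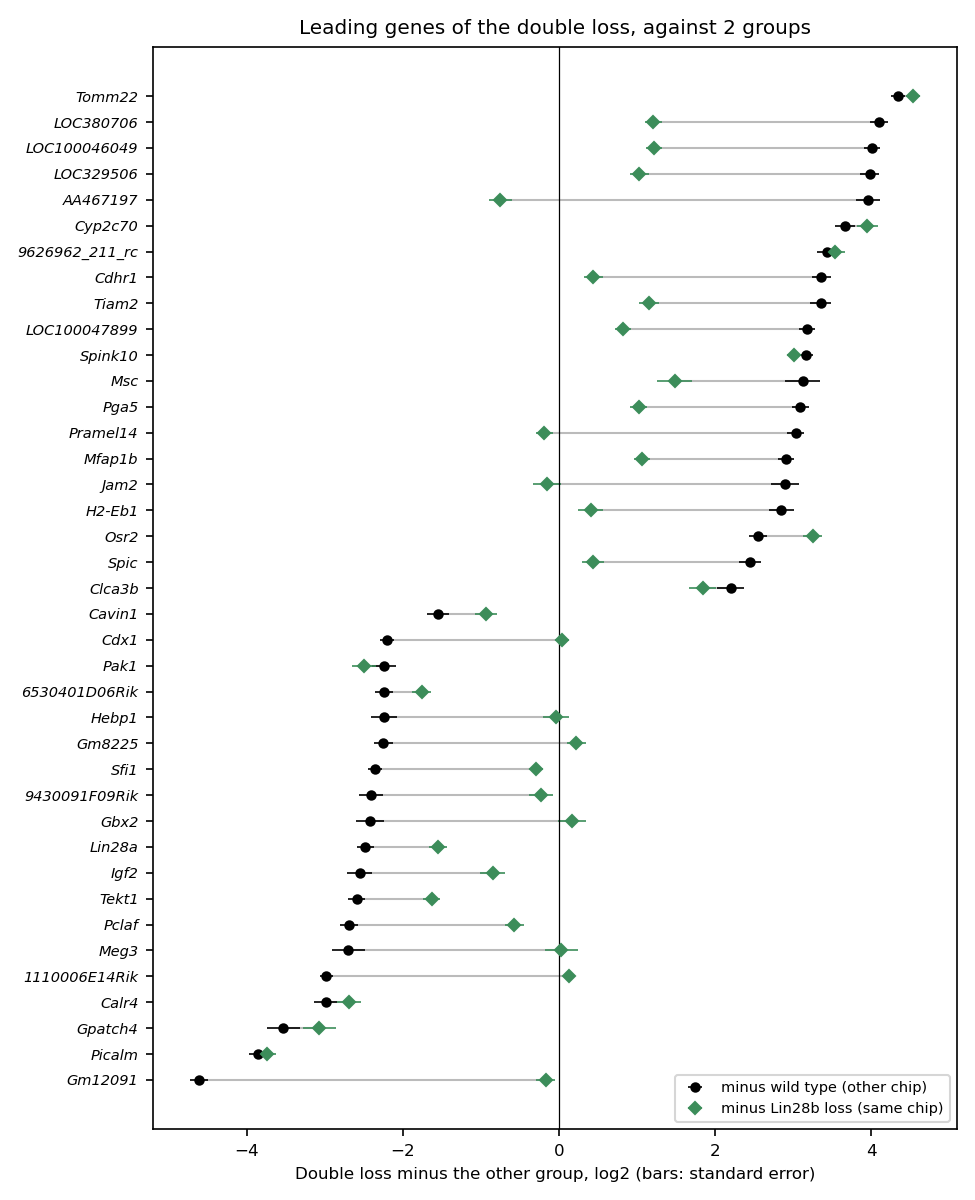
Change of leading genes, those with the largest changes among genes above background on all 6 arrays and those with the largest lower bounds, as double loss minus wild type (black circles) and double loss minus Lin28b loss (green diamonds), log2 scale with standard errors; genes not above background in a group are drawn at their measured difference. Tomm22, Cyp2c70, Osr2, Spink10, Picalm, Gpatch4, Calr4 and Pak1 have similar values in both, and Gm12091, Meg3, Gbx2 and Cdx1 lie near 0 in the second.

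Ctsc, the lysosomal protease cathepsin C that activates granule proteases, had the largest fall of any list member. It read 9.68, 9.35 and 9.52 in wild type and 4.89, 4.60 and 4.52 in double loss, where 1 of 3 arrays was above background. Its measured change was -4.85 ± 0.12, and Lin28b-loss arrays read 9.0, 8.79 and 8.88. Ctsc, Picalm and Pak1 lie in one stretch of chromosome 7 in RefSeq (GRCm38.p6). Of 18 described genes between Ctsc and Pak1, 5 fell, Picalm among them, and 3 rose. Of all described genes 19.4% fell and 18.7% rose. The median change of the 105 described genes within 15 Mb of Ctsc was -0.06. Ctsc, Picalm and Pak1 were named for their large falls.

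Genes of naive pluripotency, the state of the early epiblast, often changed. Of 18 described members 8 rose and 4 fell, a passing share of 66.7% against 38.1% in the background, with a median change of 0.24. Prdm14, a repressor of Fgf signalling and DNA methylation, read 4.55, 4.82 and 4.57 in wild type, below background, and 7.46, 7.06 and 6.94 in double loss, at least 2.81-fold higher, with a difference of 0.06 from Lin28b loss (adjusted p = 0.831). Nr5a2, a nuclear receptor that can activate the Oct4 gene, rose by 1.42 ± 0.13 from 8.07, 8.21 and 8.19 to 9.75, 9.53 and 9.47, and it stood 1.65 above Lin28b loss. Tcl1 and Zscan10 rose by 0.55 and 0.63. Gbx2 had the largest fall, and Klf4 (-0.45), Sox15 (-0.66) and Manba (-0.72) fell as well. Jam2, named above, had the largest rise. With median scaling 4 members rose and 4 fell.

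In primed pluripotency, the later epiblast state, 4 of 11 members rose and 4 fell, 72.7% in all against 38.1% of described genes. Otx2, a homeobox factor that opens enhancers in formative cells, read 8.77, 8.48 and 8.49 in wild type and 10.86, 10.38 and 10.55 in double loss, a rise of 2.01 ± 0.13. It stood lower than in Lin28b loss (-0.65, adjusted p = 0.00156), where it reached 11.21 to 11.29. Nodal, a ligand of the TGF-beta family, rose by 1.36 ± 0.11. Etv4, an Ets factor induced by Fgf, fell from 9.04, 9.07 and 9.11 to 6.96, 6.63 and 7.11, a change of -2.17 ± 0.12. Pou3f1, a POU factor of the epiblast and neural progenitors, was above background on all 3 wild-type arrays and no double-loss array, at least 1.85-fold lower, and Dnmt3b, a de novo DNA methyltransferase, changed by -1.15 ± 0.10. Against Lin28b loss Etv4 differed by 0.01 and Dnmt3b by -0.60.

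Reported targets of let-7, which mature let-7 lowers where it is active, moved both ways. Of 24 described members 4 rose and 6 fell, 41.7% in all against 38.1%, and the median change was -0.03, close to that of all genes. Lin28a, the targeted gene, is one of the 6, and with median scaling 0 rose and 5 fell. Nr6a1, the germ cell nuclear factor that represses Oct4 on differentiation, read 9.47, 9.61 and 9.57 in wild type and 7.85, 8.05 and 8.08 in double loss. It changed by -1.56 ± 0.09 against wild type and by -1.0 against Lin28b loss. Arid3a and Arid3b, paralogous DNA-binding proteins, changed by -0.76 and -0.84, and by -0.95 and -0.66 within the chip. Among those that did not pass were Trim71 at -0.08 (adjusted p = 0.586), Igf2bp1 at 0.07 (adjusted p = 0.788), Nras at 0.09 (adjusted p = 0.487) and Ccnd1 at 0.13 (adjusted p = 0.625). Igf2bp3 rose by 0.36, Slc20a1 by 0.47, Irs2 by 0.61 and Aurkb by 0.41.

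Of 13 described genes of microRNA maturation and silencing, 2 rose and 4 fell, 46.2% in all against 38.1% of described genes. The processing enzymes Drosha (0.10), Dgcr8 (0.25) and Dicer1 (-0.14) did not pass. Dis3l2, the exonuclease that degrades let-7 precursors tailed with uridine, changed by -0.47 ± 0.12 against wild type and by 0.04 against Lin28b loss. Tut7, one of the enzymes that add the uridines, changed by -0.13 (adjusted p = 0.485). The GW182 proteins, which carry the silencing activity, differed from each other: Tnrc6a rose by 0.50, Tnrc6b changed by -0.34 and Tnrc6c by -0.80. Within chip 2 Tnrc6c differed by -1.14.

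Imprinted genes are expressed from one parental copy, and in stem cells their levels are known to vary between lines. Of 14 described members 7 fell (50%) and 2 rose (14.3%), against 19.4% and 18.7% of described genes. Their median was -0.29, and with median scaling 5 fell and 1 rose. H19, a noncoding RNA made from the maternal chromosome, read 9.51, 8.97 and 8.85 in wild type and 4.84, 4.69 and 5.11 in double loss, where 1 of 3 arrays was above background. The measured change was -4.23 ± 0.24. Igf2, the growth factor gene beside it that is expressed from the paternal chromosome, read 11.77, 11.68 and 11.64 against 9.18, 9.03 and 9.23, a change of -2.55 ± 0.16. Both neighbours were lower on every double-loss array. Meg3, a maternal noncoding RNA of another imprinted cluster, read 8.36, 8.94 and 8.92 against 5.51, 6.30 and 6.32, a change of -2.70 ± 0.21. Against Lin28b loss Igf2 differed by -0.85 and Meg3 by 0.03. H19 was above background on 2 of 3 arrays there, and its difference of -0.62 did not pass (adjusted p = 0.0569). The Lin28a-loss means, on the chip of wild type, were 5.89 for Meg3, 10.28 for Igf2 and 7.88 for H19. In wild type they were 8.74, 11.70 and 9.11. Ndn, a paternal gene of the Prader-Willi region, rose by 1.34 ± 0.12. Cdkn1c, an imprinted inhibitor of cyclin-dependent kinases, and Phlda2, which restrains placental growth, fell by 1.32 and 1.34.

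Of 15 DNA methylation genes 3 rose and 3 fell, the largest of them Dnmt3b, and Tet1, which oxidises methylcytosine, changed by -0.61 ± 0.11. Of 17 Polycomb genes 3 rose and 2 fell. In all 40% of the DNA methylation genes and 29.4% of the Polycomb genes passed, against 38.1% of described genes. Rbbp7, a histone chaperone subunit, changed by -1.07 ± 0.12 against wild type and by -0.19 against Lin28b loss (adjusted p = 0.256), and Cbx7, a chromodomain subunit, by -0.54 and -0.88. Of 10 germline and piRNA genes 1 rose and 4 fell, 50% in all. Tex14, a protein of germ cell bridges, changed by -1.30 ± 0.15, and by -1.20 within the chip. Piwil2, a piRNA-binding protein, changed by -0.82 against wild type and by 0.59 against Lin28b loss.

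Of 18 described genes of Fgf and Erk signalling 5 rose and 6 fell, 61.1% in all against 38.1% of described genes. Spry4, a feedback inhibitor of receptor tyrosine kinases, read 7.33, 7.67 and 7.70 in wild type and 5.43, 5.0 and 5.39 in double loss, a change of -2.29 ± 0.15, with 1 of 3 double-loss arrays above background. Dusp6, the phosphatase that inactivates Erk, changed by -1.16 ± 0.17, with 1 of 3 double-loss arrays above background, and the inhibitor Spred1 by -0.56. Etv5 rose by 0.55 while its paralog Etv4 fell, and the phosphatase gene Dusp14 rose by 1.09. The ligand gene Fgf4 rose by 0.38 ± 0.13 (adjusted p = 0.0311). Against Lin28b loss Spry4 differed by -0.68, Dusp6 by 0.08 and Fgf4 by -0.03.

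In the Wnt list 3 of 16 members rose and 4 fell, 43.8% in all against 38.1% of described genes. Porcn, the acyltransferase that Wnt proteins need for secretion, read 9.0, 8.68 and 8.76 in wild type and 6.42, 6.28 and 6.47 in double loss, where 1 array was above background, a change of -2.42 ± 0.11. T, the mesoderm factor Brachyury, was at 5.99, 6.6 and 6.35 in wild type and below background on all 3 double-loss arrays, at least 1.6-fold lower. Cdx1 and Sp5, both targets of the pathway, changed by -2.20 and -0.85, while Axin2, another target, changed by -0.08 (adjusted p = 0.709). Sfrp1, a secreted Wnt antagonist, rose by 1.02 ± 0.08, and the repressor Tcf7l1 by 0.85 ± 0.09. Within chip 2 the values were -0.49 for Porcn, 1.27 for Sp5, 1.06 for Axin2 and -0.02 for Sfrp1. T was above background on no array of chip 2 and on no Lin28a-loss array of chip 1.

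Of 19 Nodal and BMP genes 4 rose and 4 fell, 42.1% in all against 38.1% of described genes. The ligand Nodal and its inhibitor Lefty1 rose by 1.36 and 0.74, while the ligand Bmp4 and the target Id1 changed by -0.61 and -0.90. The receptor-activated transducers split, with Smad2 (0.48) and Smad5 (0.42) higher and Smad1 (-0.59) and Smad3 (-0.64) lower. Against Lin28b loss Smad3 differed by -1.10 and Id1 by -1.08. Of 12 genes of the Lif and Stat3 pathway 3 rose and 4 fell, 58.3% in all. Socs2 rose by 1.0 ± 0.11, whereas Socs3, the feedback inhibitor that Stat3 induces, changed by -0.76 ± 0.10, and the receptor gene Lifr rose by 0.68 ± 0.12. Stat3 itself changed by 0.04 (adjusted p = 0.842).

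Mitotic genes that passed nearly all rose. Of 24 described members 12 rose (50%) and 1 fell, against 18.7% and 19.4% of described genes, and the median change was 0.28. Kif11, the kinesin that pushes spindle poles apart, read 9.22, 8.69 and 9.03 in wild type and 9.96, 9.79 and 9.70 in double loss, a rise of 0.84 ± 0.14. Plk1, a mitotic kinase, rose by 0.53 ± 0.09, and Cks1b, a subunit of cyclin-dependent kinases, was below background in wild type and above it in double loss, at least 1.7-fold higher. The kinesin Kif23 was the one that fell (-0.45). Most rises were small, and with median scaling 1 member rose and 0 fell, while the median of the list lay 0.32 above that of all tested genes. Against Lin28b loss the list had a median of 0.27.

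Of 39 DNA replication genes 2 rose (5.13%) and 6 fell (15.4%), against 18.7% and 19.4% of described genes. With median scaling 0 rose and 1 fell. Pclaf had the largest change, and Dut, which clears dUTP, rose by 0.90 ± 0.13. Of 19 genes of G1 control 5 rose and 2 fell, 36.8% in all against 38.1% of described genes. Cdkn2b, an inhibitor of Cdk4, rose by 1.06 ± 0.10 and Cdkn1c fell by 1.32, while the cyclin gene Ccne2 rose by 0.78 ± 0.16.

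In the p53 list 9 of 22 described members rose (40.9%) and 1 fell, against 2 and 1 with median scaling. Of all described genes 18.7% rose and 19.4% fell. Tigar, a phosphatase that lowers glycolytic flux, was below background in wild type at 4.41, 4.42 and 4.42 and read 7.45, 7.25 and 7.28 in double loss, at least 3.17-fold higher, with 0.48 over Lin28b loss. Plk2 rose by 1.16 ± 0.14 and Aen, a nuclease induced in apoptosis, by 0.67 ± 0.09, and both stood above Lin28b loss, by 1.59 and 1.12. Ddb2, a damage sensor, was the one that fell (-0.63). The gene for p53 itself, Trp53 (0.13), and its targets Cdkn1a (0.13), Bax (-0.01) and Bbc3 (-0.12) did not pass.

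Of 19 genes of the mitochondrial apoptosis pathway 6 fell and 1 rose, 36.8% in all against 38.1% of described genes, and with median scaling 3 fell and 1 rose. The BH3-only genes Bcl2l11, Bmf and Bik, whose proteins counter the survival members of the Bcl2 family, were among those that fell. Bcl2l11 read 6.32, 6.47 and 6.29 in wild type and was above background on no double-loss array, at least 1.66-fold lower. Bmf and Bik changed by -1.14 ± 0.16 and -0.66 ± 0.16, and within chip 2 by -0.50 and -0.13, the latter not past the test. Casp9, the initiator caspase, rose by 1.17 ± 0.09, with a difference of -0.21 from Lin28b loss. The survival gene Bcl2l2 fell too (-0.51).

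The integrated stress response list, genes induced when initiation factor eIF2 is phosphorylated, moved both ways, with 6 of 21 higher and 8 lower. In all 66.7% passed, against 38.1% of described genes. Atf4, the central factor, rose by 0.58 ± 0.09 and stood 1.44 above Lin28b loss. Its targets Chac1, Ddit4 and Ddit3 fell, with changes of -1.83 ± 0.17, -1.63 ± 0.17 and -1.44 ± 0.31. Ddit4, an inhibitor of mTORC1, read 10.74, 10.83 and 10.59 in wild type and 8.86, 9.22 and 9.19 in double loss, and differed from Lin28b loss by -1.97. The amino acid carriers Slc7a3 and Slc38a2 rose by 0.71 and 0.54. ER chaperones and folding enzymes had 5 of 13 members higher (38.5%) and 0 lower, with a median of 0.45. Of all described genes 18.7% rose and 19.4% fell. Pdia3, a disulfide isomerase, rose by 0.61 ± 0.14 and Hyou1 by 0.50 ± 0.15. Against Lin28b loss the list's median was -0.17, and with median scaling 0 members rose or fell.

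**Figure D4:**
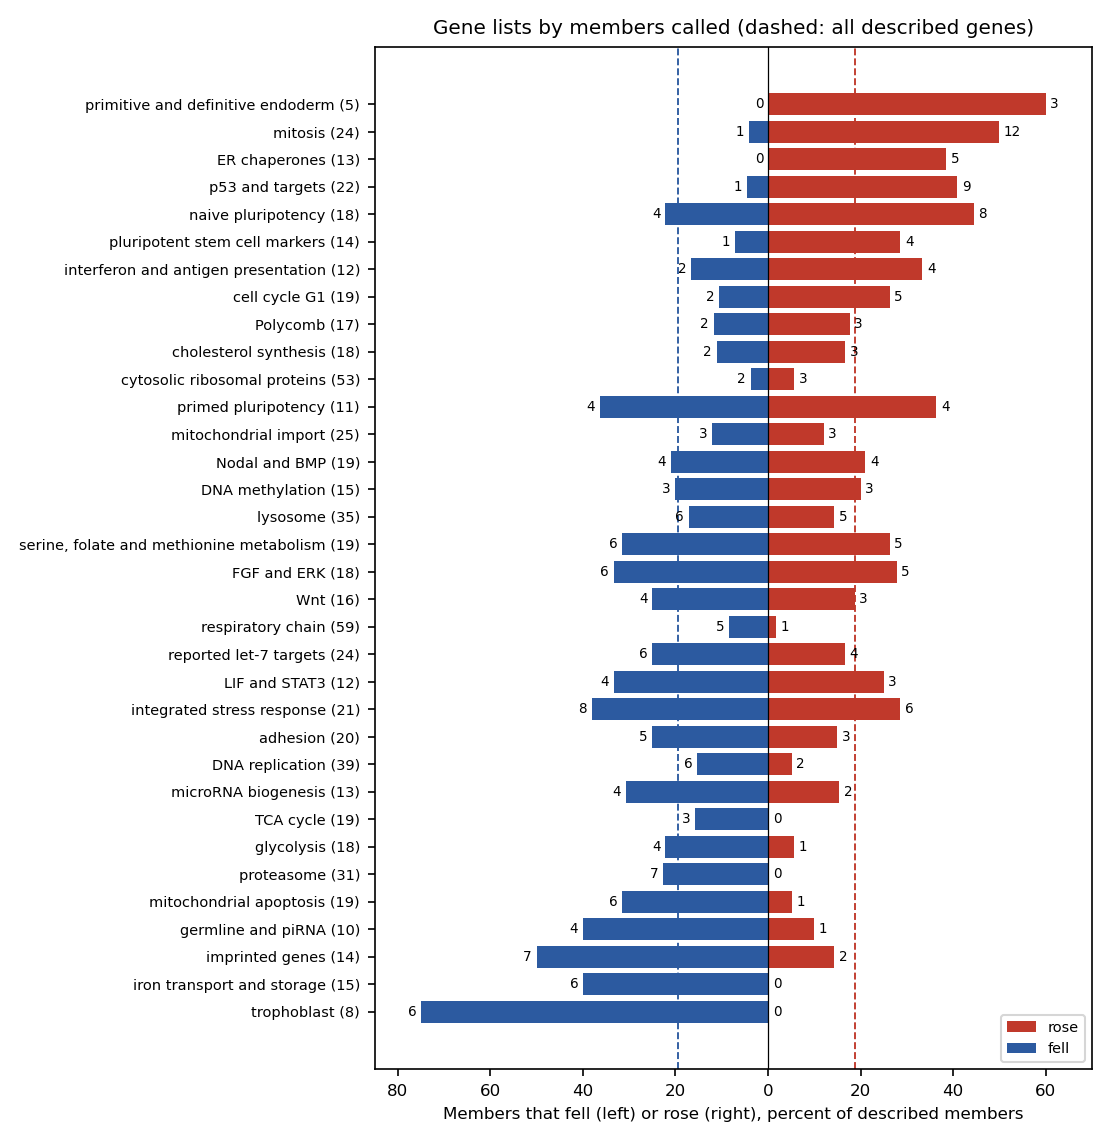
Members of each gene list with at least 5 described genes that rose (red, right) or fell (blue, left), as percent of described members, with counts at the bars and the number described in parentheses. Dashed lines mark 18.7% and 19.4%, the shares of all described genes; endoderm, mitosis and naive pluripotency extend farthest to the right and trophoblast and imprinted genes farthest to the left.

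In glycolysis 1 of 18 members rose and 4 fell, 27.8% in all against 38.1% of described genes. Eno2, an enolase isoform best known from neurons, read 8.77, 8.52 and 8.52 in wild type and 6.90, 7.08 and 7.0 in double loss, a change of -1.61 ± 0.15, and -1.73 against Lin28b loss. Pdk1, the kinase that holds back pyruvate dehydrogenase, changed by -0.92 ± 0.08, and Eno3 by -0.92 ± 0.09. The abundant enzymes Gapdh (0.09), Ldha (0.13) and Eno1 (-0.08) did not pass.

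Of 19 genes of serine, folate and methionine metabolism 5 rose and 6 fell, 57.9% in all against 38.1%, and with median scaling 0 rose and 1 fell while the median turned from 0.07 to -0.07. Phgdh, the first enzyme of serine synthesis, read 9.84, 10.01 and 9.72 in wild type and 8.76, 8.94 and 9.15 in double loss, a change of -0.91 ± 0.13. Psat1, the next enzyme, changed by -1.01 ± 0.26, and the mitochondrial folate enzyme Mthfd2 by -0.44. Within chip 2 these 3 differed by 0.15, 0.47 and 0.04, none of which passed. Cbs, which makes cystathionine, changed by -0.51 against wild type and by 0.88 against Lin28b loss. In cholesterol synthesis and uptake 3 of 18 members rose and 2 fell, 27.8% in all. Stard4, a sterol carrier, rose by 1.26 ± 0.16, while the isomerase Ebp changed by -0.97 ± 0.09. Against Lin28b loss Stard4 differed by -0.52.

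In the respiratory chain 6 of 59 members passed, or 10.2%, with 1 higher and 5 lower, all of the latter complex I subunits. Of all described genes 38.1% passed. Ndufa12 changed by -0.45 and Ndufs4 by -0.33. In the TCA cycle and pyruvate entry 0 of 19 rose and 3 fell (15.8%), Pdhb among them (-0.39). Of 25 genes of mitochondrial protein import 3 rose and 3 fell, 24% in all. Beside Tomm22, the small chaperone Timm13, above background on no wild-type array, was at least 1.47-fold higher, Timm10 rose by 0.40, and Gfer, the oxidase of the intermembrane space, changed by -0.76 ± 0.12. Of 53 cytosolic ribosomal protein genes 5 passed, or 9.43%. Rps3a1 changed by -1.78 ± 0.13 and Rps15a by 0.86 ± 0.10. Ribosomal protein genes have many near-identical pseudogenes, so these single values are uncertain. Against Lin28b loss Rps3a1 differed by 0.11 and Rps15a by -0.23. Ndufa12, Ndufs4, Pdhb and Gfer differed by 0.00, -0.03, -0.06 and -0.12. None of these passed, while Timm13, on no Lin28b-loss array, did, with a measured 1.24. The Lin28a-loss means of Rps3a1 and Rps15a were 11.11 and 6.98, against 11.41 and 7.38 in wild type.

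Of 31 proteasome genes 7 fell (22.6%) and 0 rose, with a median of -0.17. Psmb10, a catalytic subunit of the immunoproteasome, read 9.0, 9.54 and 9.42 in wild type and 8.25, 8.71 and 8.82 in double loss, a change of -0.73 ± 0.17. The activator subunits Psme1, Psme2 and Psme4 changed by -0.32, -0.66 and -0.45. The share that fell lies near the 19.4% of all described genes, and the median against Lin28b loss was 0.04. Of 15 iron genes 6 fell (40%) and 0 rose, against 19.4% and 18.7% of described genes. With median scaling 4 fell in each of these lists. Slc40a1, which encodes the iron exporter ferroportin, read 7.82, 7.72 and 7.81 in wild type and 6.80, 6.46 and 6.46 in double loss, a change of -1.21 ± 0.17, but 0.51 against Lin28b loss. Slc25a37, a mitochondrial iron importer, changed by -0.87 ± 0.15, and the ferritin light chain gene Ftl1 by -0.55 ± 0.12. Tfrc, the transferrin receptor, stood at 13.03 and 13.08 (0.05, adjusted p = 0.729).

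In the lysosome 5 of 35 members rose and 6 fell, 31.4% in all against 38.1% of described genes. Beside Ctsc, the cathepsin gene Ctsf rose by 1.12 ± 0.17 and Scarb2, a lysosomal membrane protein, by 0.78 ± 0.11. Of 20 adhesion genes 3 rose and 5 fell, 40% in all. The tight junction genes Cldn3, with 1 of 3 double-loss arrays above background, Cldn4 and Cldn7 changed by -1.01 ± 0.11, -1.03 ± 0.18 and -0.51 ± 0.17, and against Lin28b loss they differed by -0.88, -0.80 and -0.56. In the interferon and antigen presentation list 4 of 12 rose and 2 fell, 50% in all. Ifitm3, a membrane protein that restricts virus entry, rose by 0.69 ± 0.09, and H2-K1, a class I histocompatibility chain, by 0.50 ± 0.13, with 1.65 over Lin28b loss.

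Markers of other cell types were mostly at background. Of 13 fibroblast and feeder genes 10 were above background on no array, Col1a1, Col1a2 and Vim among them, and the summed level ranged from 1669 to 1848 in wild type and from 1519 to 1603 in double loss. Of 13 neuroectoderm genes 11 were on no array, including Pax6 and Sox1, and of 12 mesoderm genes 9. Their summed levels were 423 to 466 and 771 to 836 in wild type and 512 to 583 and 571 to 603 in double loss. The part of these cell types in the results was not tested. Fewer cells of a type and less RNA per cell cannot be told apart in these bulk samples. Of 8 described trophoblast and simple-epithelium genes 6 fell (75%, against 19.4% of described genes), with a median of -1.27, and with median scaling the count was 6 as well. Krt8 and Krt18, which encode partner keratins of simple epithelia, changed by -1.24 ± 0.09 and -1.44 ± 0.13, and Rhox9 by -1.88 ± 0.19. Rhox6, above background on no double-loss array, was at least 2.33-fold lower. Krt18 read 8.49, 8.31 and 8.22 in wild type and 6.76, 6.92 and 7.02 in double loss. The summed level of the list was 3460 to 3748 in wild type and 1755 to 1857 in double loss. Its members Elf5, Gata3, Hand1 and Tpbpa were on no array, while Cdx2 and Eomes were each above background on some array. Against Lin28b loss the list's median was -0.77.

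Of 5 described endoderm genes 3 rose (60%) and 0 fell, against 18.7% and 19.4% of described genes. The 3 that rose encode basement membrane proteins: Col4a1 rose by 1.19 ± 0.21, Col4a2 by 0.82 ± 0.17 and Sparc by 0.60 ± 0.08. Against Lin28b loss they differed by 0.60, 0.45 and -0.92, and with median scaling 0 members rose. The endoderm factors Gata4, Sox17 and Foxa2 were above background on no array, while the listed factors Gata6 and Sox7 were each above it on some array. The summed level of the list was 3760 to 4045 in wild type and 4666 to 4805 in double loss. The 2 described members of the two-cell-like list did not pass, Zscan4c with 0.36 and Eif1ad with -0.18.

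Of the Y-linked genes listed, Ddx3y, Kdm5d, Uty, Usp9y, Zfy1, Zfy2 and Sry were above background on none of the 6 arrays. Ddx3y still read higher in double loss, without overlap, at 7.42, 7.41 and 7.61 against 6.19, 6.38 and 6.81 in wild type. Uty did not differ in this way, with means of 4.54 in wild type and 4.63 in double loss. Eif2s3y, a Y-linked initiation factor gene, was above background on no wild-type array and on all 3 double-loss arrays, at 4.52, 4.68 and 4.74 against 6.11, 5.92 and 6.27. It was also above background on all 3 Lin28b-loss arrays and on no Lin28a-loss array. Tsix, the antisense partner of Xist, rose from below background, to at least 1.19-fold, and Xist itself was above background on no array. Whether the counting of signal separates Tsix from Xist is not given in the sources used here. The part of line origin in the other results was not tested.

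Along the chromosomes the changes were small and broad. Of the described genes 7735 could be placed through RefSeq. The 444 genes of chromosome 8 had a median change of -0.10, the lowest of any chromosome. Of them 11.7% rose and 23.9% fell, against 18.7% and 19.4% of described genes. Chromosome 12 had similar shares, 11.9% and 23.4%, and 24.7% and 24.4% fell on chromosomes 14 and 18. The medians of chromosome 8 were -0.12, -0.08 and -0.09 on the 3 double-loss arrays. All were below 0, as also on chromosomes 2, 5 and 11, among others. Against Lin28b loss the median of chromosome 8 was -0.34, and the Lin28a-loss and Lin28b-loss means lay 0.22 and 0.26 above wild type there. Chromosomes 13 and 19 had the highest medians, 0.07 and 0.06, with 24.1% and 28.2% of genes that rose, while 25% rose on chromosome 15. The remaining chromosomes lay between -0.03 and 0.03.

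**Figure D5:**
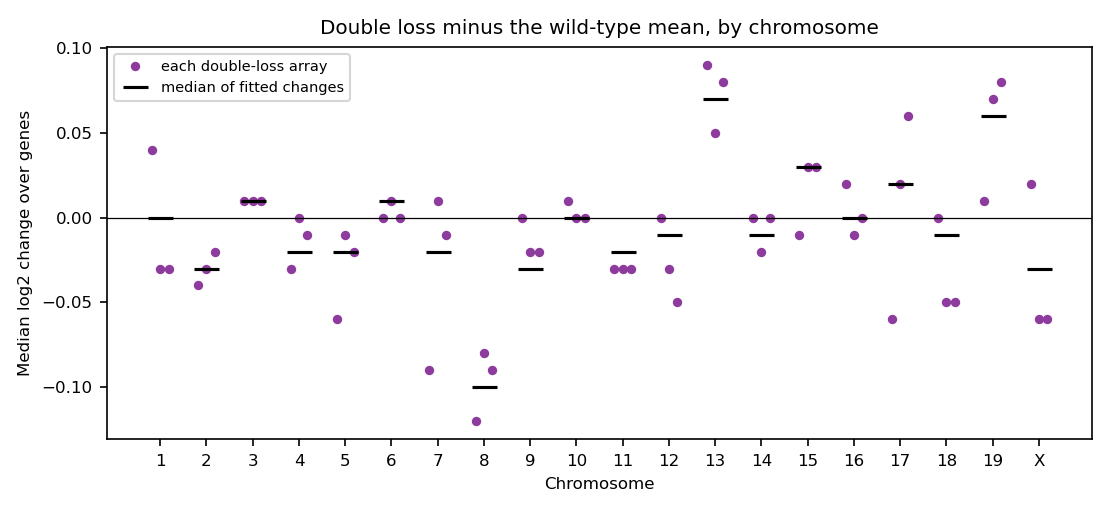
Median change over the described genes of each chromosome, for each double-loss array against the wild-type mean (purple points) and for the fitted change (bars), log2 scale. Chromosome 8 lies at -0.10, with all 3 arrays below 0 as on chromosomes 2, 5 and 11, among others. Chromosomes 13 and 19 lie at 0.07 and 0.06.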

How the data were processed

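Gene expression was measured on 12 samples with 1 Illumina WG-6 array each. Per the file headers, the deposited table holds mean bead intensity per gene, exported from GenomeStudio (GSGX 1.9.0) with no normalization, and a detection p-value per gene and array against negative control beads. GenomeStudio is also the tool in the submitters' processing notes. It has 1 value per gene, although the planned design had assumed probes. Signals of 30854 genes were corrected with limma 3.58.1 under R 4.3.3, by normexp with the background inferred from detection p in steps of 936 negative controls, an offset of 16 was added, and log2 values were quantile normalized. A missed detection limit does not place a gene read by several probes near background. Genes entered the test if every array of some group had a detection p below 0.01: 10372 did, and 9920 remained after 452 further entries of a symbol were dropped. Of those, 9065 met that limit in wild type or double loss.

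The 12 arrays were fitted together (lmFit, eBayes), giving a common estimate of the spread, with Benjamini-Hochberg adjustment over the genes tested. Gene names came from RefSeq (GRCm38.p6): 18045 matched by Entrez identifier, 2073 by symbol, 2663 by synonym, and 8073 kept the file's name. The lower bound of a fold compares the brighter group's mean with the higher, per array, of the dimmer signal and the lowest signal among genes of 1 probe above background; array number limits its precision.

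The members, the lists and the rule for named genes were chosen with earlier results of these data known. The rule took Lin28a and Lin28b, the 12 largest rises and falls among genes above background on all 6 arrays, the 8 largest lower bounds each way, and up to 4 called members of each list. Genes named beyond it were chosen after their values were seen. Some genes under the rule are not reported here. Deviations from the group mean were correlated between same-numbered replicates of wild type and double loss (r across genes 0.687, 0.577 and 0.253). For unlike numbers r was -0.685 to 0.548. Replicate 3 did not pair best with its own number. Double-loss 3 had r = 0.548 with wild-type 2, and wild-type 3 had r = 0.386 with double-loss 2. Deviations within a group sum to 0, so these r values are not independent. The printed values come from the fit without pairs, and a replicate block was an alternative. The fit was first tested on simulated data. The authors' deposited value table of probe intensities, with no gene names, served as an alternative, and 60 value columns were left out. Plots used matplotlib 3.10.9 (Python 3.11.15).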

Additional observations from a re-analysis of the deposited data

How the results depend on the processing

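Over all genes tested, 3676 passed (1781 rose, 1895 fell), 547 of them with a change of at least 2-fold, and 3632 passed against Lin28b loss. Median scaling gave 1726 (444 rose, and 1215 against Lin28b loss), and array weights gave 5759 (2794 rose, 2965 fell, 5745 against Lin28b loss). The deposited probe-level values, tested without a limit on detection, gave 8194 of 45281 probes (5635 rose, 2559 fell). Changes of at least 2-fold numbered 306 without background correction, 297 with an offset of 50, and 309 over genes above background on all 6 arrays. Leaving out 1 replicate gave 3056 to 3500 (1488 to 1667 rose, 1568 to 1841 fell), 546 to 574 of at least 2-fold, and 3007 to 3979 against Lin28b loss. With the replicate block 3765 genes passed, and all 163 named genes kept their call and direction. Of the named genes 117 kept both under every setting that tested them, none turned its direction under any, and 46 lost the call with median scaling, among them Fgf4, Kif11, Plk1, Pdia3, Hyou1, Aen, Psat1, Sparc and Col4a1. Leaving out 1 replicate lost the call of 13. Fgf4 lost it in 4 such fits (omitting wild-type 1 or 3, or double-loss 2 or 3), with 0.30 to 0.41. Hyou1 lost it on omitting wild-type 2 or 3, or double-loss 1, with 0.38 to 0.41. Kif23 lost it on omitting wild-type 1, or double-loss 2 or 3, with -0.41 to -0.34. The median change of 7 lists turned its sign with median scaling, among them glycolysis, adhesion and cholesterol synthesis. The median of all tested genes moved by -0.13 under that scaling. Relative to it the medians of these named lists were 0.09, 0.06 and 0.09, and that of mitochondrial import, another of the 7, was -0.02. The cause was not tested. Signal over background limits dim genes; fitted changes of genes not above background in a group are not exact.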
